A study of Mus musculus with 13 samples.

Results

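Genes for chaperones and quality control of the endoplasmic reticulum (ER) were followed in bulk RNA-seq of mouse brain during cuprizone-induced demyelination and recovery. The set held 10 genes, listed by symbol, out of the 55401 genes in the deposited annotation: Hspa5, Hsp90b1, Calr, Pdia4, Sdf2l1, Creld2, Dnajb9, Herpud1, Edem1 and Xbp1. The 13 libraries came from snap-frozen brain hemispheres of male C57BL/6J mice, and the labels number them as 5 control, 4 cuprizone and 4 recovery samples. A figure legend of the study also counts 13 samples, 5 control, 4 cuprizone and 4 recovery, with bulk RNA-seq of all. The text of the labels and the methods of the study, however, give 4, 3 and 3 mice. That each library came from its own mouse, as assumed in the numbers of mice (n) below, is therefore not certain. The p values would measure partly technical spread if libraries shared a mouse. Control (CTL) mice (n = 5) received control chow for 6 weeks. Cuprizone (CPZ) mice (n = 4) received chow with 0.3% cuprizone, a copper chelator that injures oligodendrocytes, for 4 weeks and were collected at week 4. Recovery (RCV) mice (n = 4) received the cuprizone chow for 4 weeks and then control chow for 2 weeks. CTL and RCV brains were collected at week 6, so that cuprizone feeding and the earlier collection cannot be told apart in any difference between CPZ mice and the other groups. The labels give an age of 6 to 8 weeks for all mice and name no transgene or other treatment, whereas the methods of the study give an older age.

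When unfolded proteins build up in the ER, the sensors IRE1 (gene Ern1), ATF6 and PERK (gene Eif2ak3) start the unfolded protein response. ATF6 and the spliced form of the transcription factor XBP1 raise transcription of ER chaperones and of ER-associated degradation (ERAD) genes, whereas PERK lowers protein synthesis and favours translation of ATF4, which in turn induces CHOP (gene Ddit3). Oligodendrocytes make large amounts of membrane protein and lipid for myelin and depend on this folding machinery. The set mixes roles. Hspa5 codes for BiP, the Hsp70 chaperone of the ER, Hsp90b1 for its Hsp90 (GRP94), Calr for calreticulin, a calcium-binding lectin chaperone, and Pdia4 for a protein disulfide isomerase. Sdf2l1 and Dnajb9 (ERdj4) code for partners of BiP, and Creld2 for an ER stress-inducible protein of the ER lumen. Herpud1 codes for a membrane protein of the ERAD complex, Edem1 for a lectin that passes misfolded glycoproteins to ERAD, and Xbp1 for the transcription factor itself. The name chaperone therefore does not cover Herpud1, Edem1 or Xbp1. Counts per gene do not separate spliced from unspliced Xbp1.

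In CPZ mice, Edem1 and Sdf2l1 were higher than in CTL mice, by 0.89 and 1.02 on the log2 scale, and no gene of the set was lower. The abundant chaperones Hspa5 and Hsp90b1 did not pass the test, with log2 differences of 0.11 and 0.13. In RCV mice, no gene of the set differed from CTL by the test. Edem1 and Sdf2l1 were also higher in CPZ than in RCV mice.

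The promoters were read to show what sequence the genes share. Classical targets of ATF6 and XBP1 carry the ER stress response element (ERSE), which is CCAAT followed by 9 bases of any kind and CCACG. Windows from 250 bases before to 50 bases after the annotated start (RefSeq, build GRCm38.p6) matched all 10 genes and were searched on both strands. ERSE was found for Hspa5, Hsp90b1, Calr and Creld2, against 39 of 32851 promoters in the table (0.119%). The element is known from classical targets of this response, and the set was made of such genes. The shares of promoters are therefore a description and not a test of the set. Hsp90b1 held 2 matches. The related ERSE-II, ATTGG and CCACG with 1 base of any kind between them, was found for Herpud1, against 12 promoters (0.0365%). Herpud1 also held a match to the CARE motif TGATGNAAN, to which ATF4 and CHOP bind, present in 3.95% of promoters. The XBP1 element UPRE, TGACGTGG, present in 0.676% of promoters, and the heat shock element (GAA, TTC and GAA, each 2 bases apart), in 0.603%, were in none of the 10 windows. The 19-base ERSE matches, read 5′ to 3′ on the strand of the gene, are shown because they are the element that genes of the set shared, none of which was called in any comparison by edgeR:
Hspa5, bases -65 to -47 from the start: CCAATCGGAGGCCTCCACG
Hsp90b1, bases -212 to -194: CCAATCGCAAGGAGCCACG
Hsp90b1, bases -107 to -89, element on the opposite strand: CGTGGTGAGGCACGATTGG
Calr, bases -162 to -144, element on the opposite strand: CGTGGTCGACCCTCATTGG
Creld2, bases -126 to -108, element on the opposite strand: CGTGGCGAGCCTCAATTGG

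The 250 bases before the start of 4 genes are given whole on the strand of the gene, with matches to ERSE, ERSE-II and CARE in capitals. Calr (chr8:84846932-84847181, minus strand) and Herpud1 (chr8:94386179-94386428, plus strand) hold such matches. Pdia4, Dnajb9 and Xbp1, which edgeR did not call and which are not printed here, hold none. Edem1 (chr6:108828391-108828640, plus strand) and Sdf2l1 (chr16:17132384-17132633, minus strand), the genes called higher in CPZ mice, hold none:
Calr: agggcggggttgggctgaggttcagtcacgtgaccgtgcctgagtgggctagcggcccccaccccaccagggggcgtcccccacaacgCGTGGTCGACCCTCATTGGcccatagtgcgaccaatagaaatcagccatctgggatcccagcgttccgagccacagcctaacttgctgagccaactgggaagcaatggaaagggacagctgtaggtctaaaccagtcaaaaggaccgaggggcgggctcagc
Herpud1: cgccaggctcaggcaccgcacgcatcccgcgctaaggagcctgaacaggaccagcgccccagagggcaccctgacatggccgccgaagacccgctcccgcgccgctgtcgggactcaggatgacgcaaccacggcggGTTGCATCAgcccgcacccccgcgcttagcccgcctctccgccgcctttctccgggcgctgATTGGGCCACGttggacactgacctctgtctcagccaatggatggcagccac
Edem1: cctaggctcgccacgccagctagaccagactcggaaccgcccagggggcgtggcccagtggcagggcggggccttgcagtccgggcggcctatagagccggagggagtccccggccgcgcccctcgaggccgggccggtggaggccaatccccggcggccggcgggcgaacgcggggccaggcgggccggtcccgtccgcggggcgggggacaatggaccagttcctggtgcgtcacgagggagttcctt
Sdf2l1: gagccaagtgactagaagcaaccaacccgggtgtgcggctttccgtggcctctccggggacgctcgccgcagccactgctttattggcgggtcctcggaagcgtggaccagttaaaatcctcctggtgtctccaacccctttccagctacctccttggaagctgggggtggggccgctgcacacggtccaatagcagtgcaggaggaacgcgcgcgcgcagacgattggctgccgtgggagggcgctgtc
The boxes CCAAT and CCACG that lie inside ERSE were also counted separately, in a search added after the ERSE matches were seen. CCACG was in the windows of 9 of the 10 genes and in 32.8% of all promoters, and CCAAT in 9 of the 10 genes and in 37.4%. Xbp1 held neither. A match is a match of letters only, and elements outside these windows were not searched.

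Expression levels between genes were compared as TPM, which the authors scaled to the length of the transcripts as well as to library size. In CTL mice, Calr was the most abundant of the set at 367 ± 34.8 TPM (SD, n = 5), followed by Hsp90b1 at 253 ± 23.9 and Hspa5 at 231 ± 35.6, whose ranges over the mice overlapped. Xbp1 stood at 83.1 ± 6.19 TPM, Herpud1 at 56.0 ± 3.61, and Pdia4 at 38.7 ± 9.02, which overlapped with Dnajb9 at 36.1 ± 6.84. Creld2 at 17.2 ± 2.64, Edem1 at 14.0 ± 1.10 and Sdf2l1 at 13.9 ± 3.01 TPM were lowest, and neighbours among these overlapped. In CPZ mice the order of the upper 7 genes was kept, while Sdf2l1 at 27.7 ± 3.98 and Edem1 at 24.1 ± 2.93 TPM (SD, n = 4) stood above Creld2 at 18.0 ± 2.93. The ranges of Creld2 and of both these genes over CPZ mice still overlapped. In RCV mice the last 3 were again Creld2 at 15.5 ± 2.03, Sdf2l1 at 14.5 ± 2.82 and Edem1 at 13.2 ± 4.52 TPM, with overlapping ranges.

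Differences between groups were tested on counts, and values per mouse are given in CPM, counts scaled to library size by TMM. Library totals lay between 4605100 and 8197289 counts, and each gene of the set passed the filter on low counts. The lowest count in any library was 31, for Sdf2l1. A gene is called where edgeR's quasi-likelihood test gave an adjusted p (Benjamini-Hochberg, 14985 genes) below 0.05. The hemisphere is a mixture, so that in these data more or fewer cells of a type and more or less RNA per cell cannot be told apart. The markers of microglia, mature oligodendrocytes, astrocytes, neurons and endothelial cells were all detected in each group.

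The comparison of CPZ with CTL mice asked what 4 weeks of cuprizone did to these genes. Of the 10, 2 were called higher and 0 lower, where 7.66% of all genes tested were called higher, 2.5% lower and 10.2% in either direction. In those 2 genes each CPZ mouse lay above each CTL mouse, against 8.25% of all genes. At an unadjusted p below 0.05, 4 of the 10 passed, against 22.1% of all genes. All 10 log2 differences were above 0, with a median of 0.13, where 45.4% of all genes lay above 0 and the median of all genes was -0.02. The values per mouse and the fitted differences are drawn in the plots of CPM and of log2 fold changes.

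**Figure D1:**
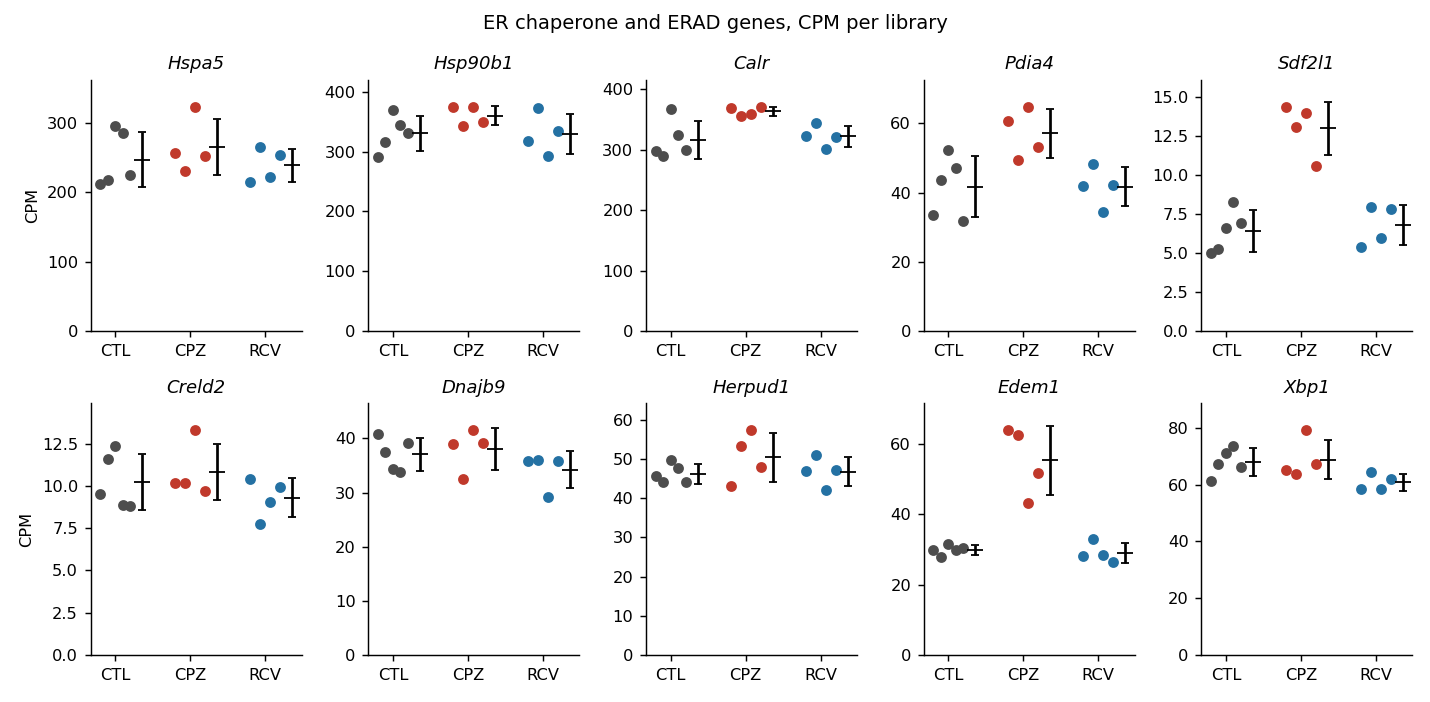
CPM per library (vertical axes, from 0) for the 10 genes in CTL (grey, n = 5), CPZ (red, n = 4) and RCV (blue, n = 4) mice, in replicate order, with the mean and SD of each group in black. Edem1 and Sdf2l1 have CPZ mice above all CTL and RCV mice, and the ranges of CPZ and CTL mice overlap for the other 8 genes.

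Edem1 stood at 29.8, 27.8, 31.4, 29.7 and 30.3 CPM in the 5 CTL mice, at 63.8, 62.6, 43.1 and 51.6 in the 4 CPZ mice and at 28.0, 32.9, 28.5 and 26.5 in the 4 RCV mice. Every CPZ mouse lay above every CTL and RCV mouse. In CPM, the CPZ mice differed among themselves more than the mice of the other groups. In TPM, the SD was larger in RCV mice, at 4.52, than in CPZ mice, at 2.93. The log2 difference of CPZ from CTL was 0.89 ± 0.10 (SE, adjusted p = 1.82e-05, edgeR quasi-likelihood test). On the TPM scale the 4 CPZ mice held 27.1, 21.8, 26.1 and 21.4 and the CTL mice between 13.1 and 15.4, again without overlap. The order of the CPZ mice differed between the scales, since replicate 3 was lowest in CPM and next to the highest in TPM.

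Sdf2l1 stood at 5.03, 5.25, 6.61, 8.26 and 6.97 CPM in CTL mice, at 14.4, 13.1, 14.0 and 10.6 in CPZ mice and at 5.42, 7.94, 5.97 and 7.81 in RCV mice. The lowest CPZ mouse lay above the highest mouse of the other groups. The log2 difference of CPZ from CTL was 1.02 ± 0.17 (SE, adjusted p = 0.000458, edgeR quasi-likelihood test).

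Pdia4 and Calr lay just outside the threshold. Pdia4 held 33.6, 43.5, 52.3, 47.1 and 31.9 CPM in CTL mice and 60.8, 49.5, 64.8 and 53.2 in CPZ mice, and only CTL replicate 3 reached into the CPZ range. Its log2 difference was 0.45 ± 0.14 (SE, adjusted p = 0.0572, edgeR quasi-likelihood test). Calr held 297, 290, 367, 324 and 299 CPM in CTL mice and 368, 355, 359 and 371 in CPZ mice, and here too CTL replicate 3 alone overlapped. Its log2 difference was 0.20 ± 0.068 (SE, adjusted p = 0.0716, edgeR quasi-likelihood test). Without CTL replicate 3, both were called, Pdia4 at a log2 difference of 0.55 (adjusted p = 0.0172) and Calr at 0.27 (adjusted p = 0.00727). Without RCV replicate 3, Pdia4 was called as well (adjusted p = 0.0469), and the cause was not tested. DESeq2 called both genes, Pdia4 with an adjusted p of 0.0271 and Calr with 0.0354. Pdia4 was also called by limma-voom (adjusted p = 0.0449), and Calr by edgeR without a filter on low counts (adjusted p = 0.0473).

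For the remaining 6 genes the CPZ and CTL ranges overlapped widely. Hspa5 held 212, 218, 295, 285 and 225 CPM in CTL mice and 257, 230, 323 and 252 in CPZ mice, a log2 difference of 0.11 with a 95% interval of -0.15 to 0.36. Hsp90b1 held between 291 and 369 CPM in CTL mice and between 343 and 375 in CPZ mice, a log2 difference of 0.13 with an interval of -0.04 to 0.29. Differences of the size fitted for Edem1 and Sdf2l1 lie outside both intervals. Herpud1 held between 44.0 and 49.8 CPM in CTL and between 43.2 and 57.3 in CPZ mice, with an interval of -0.05 to 0.30. Xbp1 held between 61.2 and 73.7 CPM in CTL and between 63.8 and 79.1 in CPZ mice, with an interval of -0.14 to 0.18. For Dnajb9 the interval was -0.16 to 0.22, and for Creld2 it was -0.22 to 0.39.

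**Figure D2:**
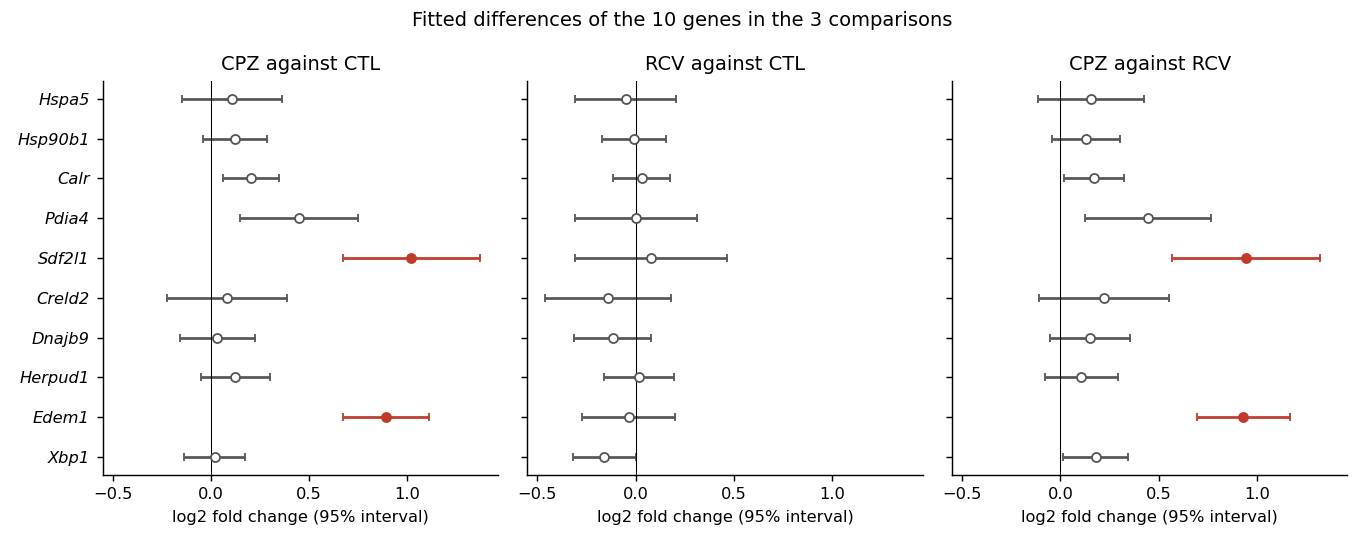
Fitted log2 fold changes of the 10 genes (points) with 95% intervals (bars) in the 3 comparisons between the groups, with filled red points where the adjusted p of edgeR's quasi-likelihood test was below 0.05. Edem1 and Sdf2l1 are called in both comparisons with CPZ, and no gene is called for RCV against CTL.

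The comparison of RCV with CTL mice asked what remained after 2 weeks of control chow. None of the 10 genes was called by edgeR (0 of 10, against 0.374% of all genes), and DESeq2 and limma-voom also called 0. At an unadjusted p below 0.05, 1 gene passed, Xbp1, against 6.2% of all genes. It held between 58.3 and 64.5 CPM in RCV mice, and its log2 difference was -0.16 (unadjusted p = 0.0496, adjusted p = 0.805, edgeR quasi-likelihood test). The median over the 10 genes was -0.02. For Edem1 the log2 difference was -0.04 with a 95% interval of -0.27 to 0.20, and for Sdf2l1 it was 0.08 with an interval of -0.31 to 0.46. In TPM the RCV mice spread more for Edem1 than in CPM, with 9.73, 15.1, 18.7 and 9.27.

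In CPZ against RCV mice, Edem1 and Sdf2l1 were called higher and 0 of the 10 lower, where 5.13% of all genes were called higher, 1.88% lower and 7.01% in either direction. All 10 log2 differences were above 0, against 48.5% of all genes, with a median of 0.18. The log2 differences were 0.93 ± 0.11 for Edem1 (SE, adjusted p = 0.000294, edgeR quasi-likelihood test) and 0.95 ± 0.18 for Sdf2l1 (SE, adjusted p = 0.0037). At an unadjusted p below 0.05, 5 of the 10 passed, against 19.1% of all genes. For 4 genes, Edem1, Sdf2l1, Pdia4 and Calr, each CPZ mouse lay above each RCV mouse, against 8.26% of all genes. Pdia4 held 41.9, 48.3, 34.4 and 42.3 CPM in RCV mice, a log2 difference of 0.45 (adjusted p = 0.0994), and Calr 323, 344, 301 and 321 CPM, a log2 difference of 0.17 (adjusted p = 0.193), so that neither was called by edgeR. With only the CPZ and RCV libraries in the fit, Pdia4 was called (log2 difference 0.45, adjusted p = 0.0384). This comparison shares its CPZ mice with that of CPZ and CTL and is not independent of it.

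Homologues of genes of the set were read beside them. Edem2 and Edem3 code for homologues of Edem1 in ERAD. In CPM, Edem2 stood at 17.7 ± 1.29 (SD, n = 5) in CTL and 22.0 ± 1.94 (SD, n = 4) in CPZ mice and was not called (log2 difference 0.31, adjusted p = 0.0875, edgeR quasi-likelihood test), while Edem3 stood at 62.6 ± 2.76 and 61.2 ± 2.67. Sdf2, the homologue of Sdf2l1, stood at 32.7 ± 5.48 CPM in CTL and 32.0 ± 4.73 in CPZ mice. Herpud2, the homologue of Herpud1, stood at 38.9 ± 3.27 and 43.5 ± 1.18 CPM. It was not called (log2 difference 0.16, adjusted p = 0.194, edgeR quasi-likelihood test). Its CPZ mice, at 42.6 CPM or more, lay above its CTL mice, at 42.3 or less, as for 8.25% of all genes. Whether the members of these pairs differed in their response was not tested.

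The other genes of the pathway were read from lists of 6 to 20 genes, whose counts are to be read against the 7.66% of all genes called higher in CPZ against CTL and the 5.13% called higher in CPZ against RCV. Among the sensors and the proteases that process ATF6, 0 of 6 were called in CPZ against CTL by edgeR, and 1 passed at an unadjusted p below 0.05. This was Ern1, the gene of IRE1, at 15.8 ± 1.24 CPM in CTL and 18.9 ± 2.12 in CPZ mice (log2 difference 0.26, adjusted p = 0.112). Without CPZ replicate 4 the number called was 1. Among 20 other ER chaperones and folding enzymes, 3 were called higher and 0 lower, and the median log2 difference was 0.06. The protein disulfide isomerases P4hb and Pdia3 stood at 104 ± 5.48 and 154 ± 15.6 CPM in CTL mice and at 133 ± 7.82 and 186 ± 10.9 in CPZ mice. Their log2 differences were 0.35 (adjusted p = 0.0109) and 0.27 (adjusted p = 0.0218). Dnajc1, an ER membrane partner of BiP, differed by 0.33 (adjusted p = 0.0378). Only 1 of the 20 was called without CTL replicate 2 or without CPZ replicate 1. In CPZ against RCV, 0 of the 20 were called by edgeR, with 7 at an unadjusted p below 0.05. Leaving out RCV replicate 2 gave 1 call there.

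Of 16 other ERAD genes, 15 passed the filter on low counts and 0 were called in CPZ against CTL by edgeR, with 3 at an unadjusted p below 0.05. Leaving out RCV replicate 2 gave 1 call. Of 14 genes of the translocon and of signal peptide processing, 1 was called higher, near the share of all genes. This was Ssr3 of the translocon-associated protein complex, at 102 ± 5.37 CPM in CTL and 116 ± 2.43 in CPZ mice (log2 difference 0.19, adjusted p = 0.0219, edgeR quasi-likelihood test). The count was 0 without CTL replicate 3 and without CPZ replicate 2 or 3, and 2 without CTL replicate 4, CPZ replicate 4 or RCV replicate 4, and 2 with DESeq2. Ssr4, of the same complex, was called by edgeR in CPZ against RCV (log2 difference 0.43, adjusted p = 0.0394) but not in CPZ against CTL (adjusted p = 0.051). The call in CPZ against RCV was lost with limma-voom, with the choroid plexus markers as a covariate, and without CPZ replicate 1, 2 or 3 or RCV replicate 1 or 3.

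The last list of the response held 12 genes grouped under the name of the PERK-ATF4-CHOP branch. The activity of PERK was not measured, and its part in the levels of these genes was not tested. In CPZ against CTL, 8 of them were called higher and 0 lower, with a median log2 difference of 0.77. The log2 difference was above 0 for 11 of the 12. Atf4 differed by 0.43 (adjusted p = 0.00117, edgeR quasi-likelihood test) and Ddit3 by 0.82 (adjusted p = 0.000546). Asns differed by 0.04 and Ddit4 by -0.36, and neither was called (adjusted p = 0.867 and 0.0809). In CPZ against RCV, 7 of the 12 were called higher and 0 lower. Atf5, a transcription factor downstream of ATF4, stood at 16.1 ± 1.43 CPM in CTL, 118 ± 19.7 in CPZ and 17.0 ± 2.08 in RCV mice (log2 difference of CPZ from CTL 2.86, adjusted p = 3.58e-10, edgeR quasi-likelihood test). Atf3, a stress-induced transcription factor, had between 1 and 4 counts in each CTL library and between 40 and 89 in each CPZ library (adjusted p = 8.7e-07). Trib3, a pseudokinase induced by ATF4 and CHOP, had between 0 and 7 counts in CTL and between 25 and 120 in CPZ libraries (adjusted p = 0.000108). No fold is given for these because the fitted value depends on the prior count. Nupr1, a stress-induced nuclear protein, stood at 3.58 ± 0.908 CPM in CTL, 23.6 ± 5.16 in CPZ and 5.15 ± 0.441 in RCV mice.

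In RCV against CTL, Atf3 was the only gene of the 6 lists that was called, with between 7 and 17 counts in each RCV library (adjusted p = 0.0203, edgeR quasi-likelihood test). It was not called by limma-voom or without CTL replicate 1, 2 or 5 or RCV replicate 1 or 2. Of 13 chaperones of the cytosol and mitochondria, 2 were called higher and 0 lower in CPZ against CTL, and the median log2 difference was -0.05. These were the mitochondrial chaperones Hspe1, at 35.1 ± 1.38 CPM in CTL and 41.2 ± 1.41 in CPZ mice (adjusted p = 0.029), and Hspa9, at 204 ± 6.65 and 236 ± 14.8 CPM (adjusted p = 0.0151). Hspd1, another mitochondrial chaperone of the list, differed by -0.01 and was not called (adjusted p = 0.956, edgeR quasi-likelihood test). The number called in CPZ against CTL was 0 without CPZ replicate 1 or 2 and 1 without CTL replicate 2. In CPZ against RCV, 0 of the 13 were called by edgeR and 1 by the DESeq2 Wald test. The spread of the lists is drawn in the plot of log2 fold changes by list.

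**Figure D3:**
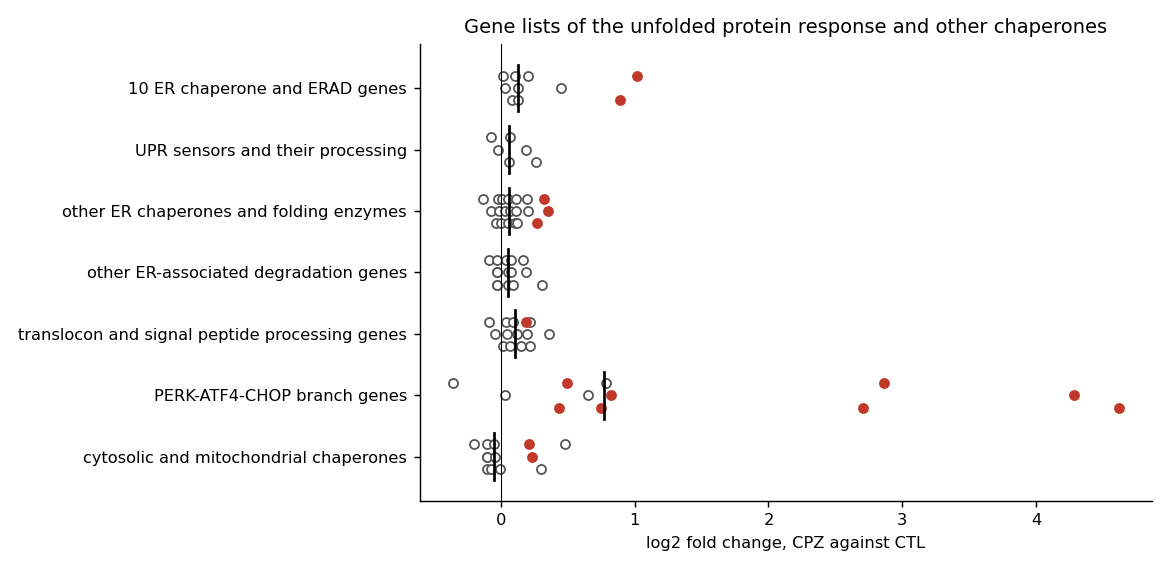
Log2 fold changes of CPZ against CTL (horizontal axis) for the 10 genes and the 6 lists (rows), with filled red points for genes called by edgeR, open points for the others and a black line at the median of each list. The 3 points beyond 2.8 are Atf5, Trib3 and Atf3, and the last 2 are fitted against libraries with few counts.

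Members of the set also varied from mouse to mouse within groups. Deviations of log2-CPM from the group means were correlated over the 13 libraries, as a description, since the libraries share depth and composition. Of the 45 pairs of genes, 36 had a Pearson's r above 0 and 14 above 0.5, with a median of 0.31. The highest was 0.92, for Hspa5 and Xbp1, and Hsp90b1 correlated with Hspa5 at 0.80, with Calr at 0.80 and with Pdia4 at 0.80. Edem1 had the lowest median r to the other 9 genes, -0.24, and Dnajb9 the next, 0.05. Sdf2l1, which like Edem1 was called in CPZ mice, had a median r of 0.41 and its best partner in Hsp90b1 (0.72), against 0.20 with Edem1. CTL replicate 3 lay above its group mean for 9 of the 10 genes, RCV replicate 2 for 9 and RCV replicate 3 for 0.

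**Figure D4:**
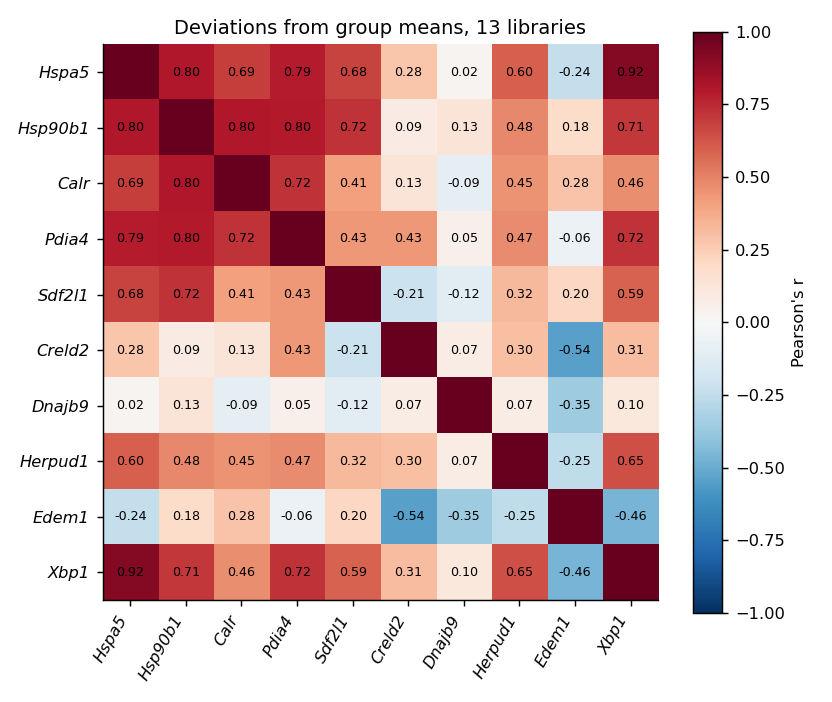
Pearson's r between genes of the set, from deviations of log2-CPM from group means over 13 libraries (colour scale from -1 in blue to 1 in red). Hspa5, Hsp90b1, Calr, Pdia4 and Xbp1 share values between 0.46 and 0.92, while the row of Edem1 holds values between -0.54 and 0.28.

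Among the 11082 genes whose mean log2-CPM was 3 or more, the ones whose deviations were most like the mean of the set were Gpx4 (r = 0.94), Ahcy (0.93), Rpn1 (0.93), Crb2 (0.92) and Manf (0.90), over the 13 libraries. Rpn1 codes for a subunit of the oligosaccharyltransferase of the ER, and Manf for an ER stress-inducible protein that is retained in the ER. Gpx4 codes for a glutathione peroxidase that reduces lipid peroxides. None of these 5 was called in any of the 3 comparisons by edgeR.

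Markers of brain cell types moved with the groups and with some of these genes. The summed CPM of 10 microglia markers was between 356 and 423 in CTL, between 1180 and 2400 in CPZ and between 534 and 740 in RCV mice, and all 10 were called higher in CPZ against CTL. All 10 markers of mature oligodendrocytes were called lower, with sums between 2500 and 4750 in CTL and between 1130 and 1840 in CPZ mice. Of 10 markers each, 5 of astrocytes and 0 of neurons or endothelial cells were called higher, and 0 of these 3 types lower, by edgeR, with 6, 1 and 2 at an unadjusted p below 0.05. Among the CPZ mice, microglia marker sums were 2400, 2150, 1180 and 1460 in the order of the replicates, the same order as Edem1 in CPM but not in TPM. With group means removed, r between the log2 sum and Edem1 was 0.79 over 13 libraries. It was 0.20 for Sdf2l1 and -0.34 for Hspa5. This relation did not hold in each group. The highest CTL sum, 423 in replicate 2, went with the lowest CTL Edem1, 27.8 CPM. The lowest CTL sum, 356 in replicate 3, went with the highest, 31.4 CPM. In RCV mice the highest sum, 740 in replicate 2, went with the highest Edem1, 32.9 CPM. The RCV mice had higher microglia sums than the CTL mice, and their Edem1 CPM overlapped with those of CTL. The part of microglia in the level of Edem1 was not tested.

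Choroid plexus markers varied widely within each group, with sums between 441 and 2850 CPM in CTL, 646 and 2430 in CPZ and 25.2 and 1490 in RCV mice, and 0 of 10 were called in any comparison by edgeR, with 0 at an unadjusted p below 0.05. The highest sum was in CTL replicate 3 and the lowest in RCV replicate 3. RCV replicate 4 had a sum of 31 CPM and lay above its group mean for 8 of the 10 genes. The value of r between the log2 sum and the mean deviation of the set was 0.63 over 13 libraries. It was 0.69 for Hsp90b1, 0.63 for Pdia4 and 0.58 for Calr, against 0.17 for Sdf2l1 and 0.28 for Edem1. Values of similar size but negative came from other cell types. With the mean deviation of the set, r was -0.595 for astrocyte and -0.577 for neuron markers. It was -0.313 for endothelial, -0.0591 for microglia and 0.128 for mature oligodendrocyte markers. With the choroid plexus sum as a covariate, Edem1 and Sdf2l1 were called in both comparisons with CPZ. Pdia4 was then called in CPZ against CTL (log2 difference 0.42, adjusted p = 0.0234, edgeR quasi-likelihood test). Markers of plasma and B cells, which carry high levels of these chaperones, summed to between 12.5 and 27.5 CPM in CTL, 31.5 and 44.4 in CPZ and 11.5 and 34.9 in RCV mice. Only 1 of these 10 markers, Ighm, passed the filter on low counts, and it made up most of the sum. Ighm stood at 19.5 CPM in CTL, 35.5 in CPZ and 22.3 in RCV mice. It was not called in CPZ against CTL (adjusted p = 0.104, edgeR quasi-likelihood test). The group means of the other markers were at most 0.889 CPM. The part of plasma and B cells in the levels of the set was not tested.

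**Figure D5:**
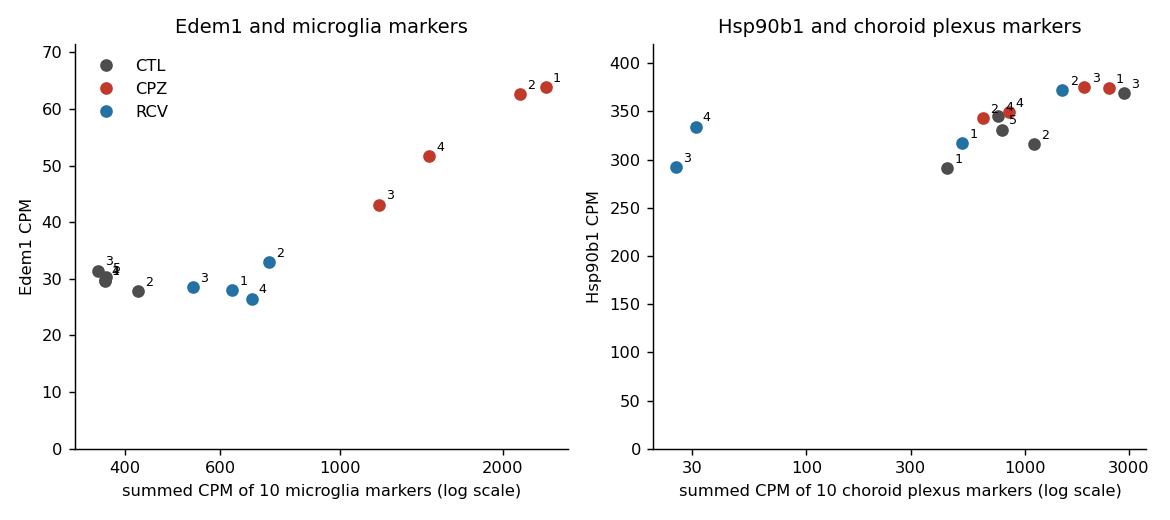
Edem1 CPM against the summed CPM of 10 microglia markers (left) and Hsp90b1 CPM against the summed CPM of 10 choroid plexus markers (right), horizontal axes on a log scale, 1 point per library with its replicate number, in CTL (grey), CPZ (red) and RCV (blue) mice. CPZ mice with more microglia marker RNA had higher Edem1 CPM, and the libraries with the most choroid plexus marker RNA, up to 2850 CPM, lie among the highest for Hsp90b1.

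Gene positions are those of GENCODE M21 on GRCm38. Edem1 lies at chr6:108828641-108859356 on the plus strand and Sdf2l1 at chr16:17130138-17132383 on the minus strand, and neither overlaps another annotated gene. Hspa5 (chr2:34771970-34777547), Calr (chr8:84841850-84846934) and Creld2 (chr15:88819646-88826683) also overlap no other gene. Hsp90b1 (chr10:86690209-86705509, minus strand) overlaps the pseudogene 1810014B01Rik on the opposite strand, which had between 11 and 26 counts per library against at least 1519 for Hsp90b1. On its own strand it overlaps Gm15344 over 977 bases, with between 0 and 6 counts, and Gm25745 over 133 bases, with between 0 and 7 counts. Herpud1 (chr8:94386438-94395377, plus strand) overlaps an antisense gene with at most 1 count per library. Pdia4 (chr6:47796141-47813430, minus strand) and Dnajb9 (chr12:44205559-44210326, minus strand) overlap microRNA genes with 0 counts.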

How the data were processed

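RNA of brain hemispheres was measured in 13 libraries (5 CTL, 4 CPZ, 4 RCV) by bulk RNA-seq (Kapa mRNA HyperPrep Kit, paired-end reads). The text of the labels gives 4, 3 and 3 mice, and all 13 libraries were used. RCV libraries are titled "Veh" and were grouped by their treatment field. The authors deposited estimated counts, which are not scaled to library size, and TPM values, scaled to both transcript length and depth. The submitters' processing notes name STAR, RSEM and mm10, and the methods name the RNASequest pipeline. Of the estimated counts, 4.45% were not whole, and all were rounded. The 92 spike-in rows held 0 counts.

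The genes and lists were chosen with earlier results of these data known. Genes were filtered with filterByExpr by group, scaled by TMM and tested by the robust quasi-likelihood test of edgeR 4.0.16 (R 4.3.3) in one fit of 13 libraries, with one mean per group. Adjusted p values are those of Benjamini and Hochberg over 14985 genes, with a threshold of 0.05. The 95% intervals are not adjusted. CPM are TMM-scaled counts, and log2-CPM used a prior count of 2. The test was checked on simulated data with known changes. Alternatives were DESeq2 1.42.0 (size factors or Wald test), limma-voom and limma 3.58.1 on log2(TPM + pseudocount), the pseudocount being 1 or 0.1 (TPM of at least 1 in 4 libraries, or no filter), other count filters, only the groups compared, the replicate number as a block and each library left out. Choroid plexus markers as a covariate were added after seeing the data.

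Named beside the 10 genes were, per list and comparison, up to 3 called genes in each direction with the largest change, the gene of smallest p where a list had no call in any comparison, and the 5 genes most like the mean of the set. The homologues Edem3, Sdf2 and Herpud2, the marker Ighm and the genes overlapping Hsp90b1 were named after their values were seen. So were Atf4, Ddit3, Asns, Ddit4 and Hspd1 of the lists. The identifier of Xbp1 has another version in the counts than in GENCODE M21, and its position is not given. Same-numbered libraries of different groups did not deviate together more than differently numbered ones, which does not settle whether the numbers mark a pairing. Between libraries of one group, chi-square per gene was 4.49 to 17.8 over 22 pairs, so none was counted as a duplicate. Protein sequences, nuclei and spatial data were not analysed here.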

Additional observations from a re-analysis of the deposited data

Results flagged for a closer look

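In 30 groups of CPM values, 10 genes in 3 groups of mice, the highest or lowest mouse was compared with the rest of its group, and 2 stood farther out than Dixon's 95% limit. Chance gives about 1 in 20. Dnajb9 was at 29.1 CPM in RCV replicate 3 and between 35.8 and 36 in the other RCV mice, a gap of 0.971 of the range. Creld2 was at 13.3 CPM in CPZ replicate 3 and between 9.68 and 10.2 in the other CPZ mice, a gap of 0.856 of the range. RCV replicate 3 also had the lowest sum of choroid plexus markers, 25.2 CPM, and lay below its group mean for all 10 genes. RCV replicate 4, with a nearly equal sum of 31 CPM, lay above its group mean for 8 of the 10 genes. CPZ replicate 3 lay above its group mean for 8 of the 10 genes. Whether these observations are linked was not tested.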

How the results depend on the processing

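Edem1 and Sdf2l1 were called in both comparisons with CPZ under all 24 alternatives, with log2 differences of CPZ from CTL between 0.74 and 1.00 for Edem1 and between 0.94 and 1.13 for Sdf2l1. The number of the 10 genes called in CPZ against CTL was 4 with the DESeq2 Wald test, and between 2 and 4 when each library was left out, the 4 coming without CTL replicate 3. It was 3 with limma-voom, without a count filter and with the choroid plexus covariate. In CPZ against RCV it was 3 with only the groups compared. It was 2 in CPZ against RCV and 0 in RCV against CTL without each library. Over all genes, CPZ against CTL gave 992 calls on unfiltered TPM and 1078 to 1680 with a library left out. RCV against CTL gave 131 with the DESeq2 Wald test, 12 with limma-voom, 22 on unfiltered TPM, 20 with at least 10 counts in every library and 21 to 87 with a library left out (21 without RCV replicate 2, 87 without CPZ replicate 3). CPZ against RCV gave 599, 508 and 487 on TPM with a pseudocount of 1, of 0.1 and unfiltered, 565 with the choroid plexus covariate and 632 to 1170 with a library left out (632 without CPZ replicate 1, 693 without CPZ replicate 2).

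Signs turned only for genes that were not called, all with differences near 0, and the cause was not tested. In CPZ against CTL, Dnajb9 was at -0.0327, -0.0331 and -0.0327 and Xbp1 at -0.096, -0.0972 and -0.096 on TPM with a pseudocount of 1, of 0.1 and unfiltered. With a library left out, values ran from -0.00421 to 0.103 for Dnajb9, from -0.0467 to 0.0544 for Xbp1 and from -0.0229 to 0.161 for Creld2. In RCV against CTL, the choroid plexus covariate gave 0.0585 for Hspa5, 0.113 for Hsp90b1 and 0.0257 for Edem1, and for Pdia4 the values were -0.0197 on the 3 TPM settings, -0.00681 without a count filter and -0.0649 with the block. With a library left out, values there ran from -0.106 to 0.0221 for Hspa5, from -0.0711 to 0.0457 for Hsp90b1, from -0.0788 to 0.0977 for Pdia4, from -0.0158 to 0.187 for Sdf2l1, from -0.0266 to 0.0663 for Herpud1 and from -0.00199 to 0.0918 for Calr. In CPZ against RCV, the covariate gave -0.00496 for Hsp90b1.

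The replicate number as a block left 2 of the 10 genes called in each comparison with CPZ and 0 in the other, and over all genes 1172 calls in CPZ against CTL, 42 in RCV against CTL and 755 in CPZ against RCV. With the block, calls in CPZ against CTL fell from 3 to 1 for the other ER chaperones, from 1 to 0 for the translocon genes and from 2 to 0 for the cytosolic and mitochondrial chaperones, and neither Atf3 in RCV against CTL nor Ssr4 in CPZ against RCV was called. Same-numbered libraries of different groups correlated at -0.199 to 0.136, and differently numbered ones at -0.205 to 0.265. These values do not settle whether the numbers mark a pairing. Genes with few counts, such as Sdf2l1 and Creld2, have the widest intervals.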
